A study of Mus musculus with 7 samples.

Results

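Synthesis of sterols and fatty acids was followed through 32 genes of the pathway in microglia sorted from glioma-bearing brains. The members were taken by gene symbol, as the first symbol of a row in a table of 24537 genes, and all 32 had a row. Of these, 30 reached at least 1 FPKM (a fragment count scaled to transcript length and to library size) in 2 or more of the 7 libraries and are described in full. The other 2, Idi1 and Acaca, stayed below that level. In all, 13028 genes reached it.

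The cells came from C57BL/6 mice that carried tumours of the 005 glioma line, a mouse model of glioblastoma, and were collected at day 35 after implantation. Microglia, the resident macrophages of the brain, were sorted as cells with intermediate CD45 and with the chemokine receptor CX3CR1, and their total RNA was sequenced. There were 2 libraries from mice given IgG as control, 2 from mice given an antibody to CTLA4, which restrains T cells, and 3 from mice in which CD4 T cells were depleted in addition to that antibody, here called the CD4 depletion libraries. All groups carried the same tumour, and no group without tumour or with CD4 depletion alone was analysed here.

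Cells make cholesterol from acetyl-CoA through mevalonate, squalene and lanosterol, and make fatty acids from the same acetyl-CoA through malonyl-CoA and palmitate, which is then elongated and desaturated. Both branches are driven by the SREBP transcription factors, membrane proteins that the escort protein SCAP carries out of the endoplasmic reticulum when sterols are low and that INSIG proteins retain there when sterols are plentiful. SREBP2, from Srebf2, acts mainly on sterol genes and SREBP1, from Srebf1, mainly on fatty acid genes. The adult brain makes its own cholesterol, since lipoproteins of the blood hardly cross the blood-brain barrier.

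The low FPKM values were whole multiples of 1 read, from which totals of 84150000 to 107610000 reads per library followed, with 49883087 to 61856734 in genes. The columns for the anti-CTLA4 libraries carry the sample sheet numbers 29 and 30, whereas the sample descriptions give 10 and 11, and the command in the header of the table gives 29 and 30 to libraries named MIFNGRKO. They are therefore called the libraries labelled anti-CTLA4, and every direction against them depends on that name. All 10 microglia markers were present, with summed levels of 3317 to 10645 FPKM. All 10 markers of oligodendrocyte precursors, which glioma cells also express, were detected too, at a sum of 653 and 903 FPKM in the IgG libraries, 83.5 and 32.8 in those labelled anti-CTLA4 and 154, 531 and 369 in the CD4 depletion libraries. Monocyte markers summed to 709.99 FPKM in CD4 depletion library 1 against 11.5 to 52.6 in the other libraries. The T cell genes Cd3d, Cd8a and Cd4 and the neuronal genes Rbfox3, Stmn2, Slc17a7 and Gad2 were below 1 FPKM in every library. In bulk RNA, fewer cells of a type and less RNA per cell cannot be told apart.

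Promoters of the members are shown first. RefSeq's promoter table (build GRCm38.p6, 250 bases before to 50 after each start) held a window for 25 of the 32 members. It held none for Fdps, Fdft1, Sqle, Stard4, Scd1, Scd2 and Fads1. The shares below therefore leave out Scd2 and Sqle, the members with the largest falls against IgG. The letters searched on both strands were TCACNCCAC for the sterol regulatory element that SREBPs bind, its looser forms TCACNCNAC and TCACNCCA, the E-box CACGTG, the NF-Y box CCAAT and the GC box GGGCGG bound by Sp1. The 250 bases before the start of 6 members follow, read 5′ to 3′ on the strand of the gene, with every match in capitals. Hmgcs1 lies at chr13:119690101-119690350 (plus strand), Srebf2 at chr15:82147019-82147268 (plus), Cyp51 at chr5:4104698-4104947 (minus), Hsd17b7 at chr1:169969206-169969455 (minus), Elovl6 at chr3:129532136-129532385 (plus) and Ebp at chrX:8193513-8193762 (minus).
Hmgcs1: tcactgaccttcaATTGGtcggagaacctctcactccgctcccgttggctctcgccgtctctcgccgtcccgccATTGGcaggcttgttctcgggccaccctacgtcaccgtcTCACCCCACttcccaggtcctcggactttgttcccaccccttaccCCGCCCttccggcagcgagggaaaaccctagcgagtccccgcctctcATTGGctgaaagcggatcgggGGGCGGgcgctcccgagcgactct
Srebf2: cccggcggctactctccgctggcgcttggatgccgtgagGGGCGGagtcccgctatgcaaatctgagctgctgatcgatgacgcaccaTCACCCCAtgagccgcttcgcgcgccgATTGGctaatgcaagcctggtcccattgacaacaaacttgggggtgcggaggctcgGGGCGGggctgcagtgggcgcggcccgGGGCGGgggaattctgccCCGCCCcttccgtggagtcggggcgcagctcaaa
Cyp51: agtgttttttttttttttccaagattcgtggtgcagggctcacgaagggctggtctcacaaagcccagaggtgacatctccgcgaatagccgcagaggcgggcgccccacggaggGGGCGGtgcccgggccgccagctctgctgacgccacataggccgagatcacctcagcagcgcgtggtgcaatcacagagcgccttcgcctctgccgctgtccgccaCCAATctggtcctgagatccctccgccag
Hsd17b7: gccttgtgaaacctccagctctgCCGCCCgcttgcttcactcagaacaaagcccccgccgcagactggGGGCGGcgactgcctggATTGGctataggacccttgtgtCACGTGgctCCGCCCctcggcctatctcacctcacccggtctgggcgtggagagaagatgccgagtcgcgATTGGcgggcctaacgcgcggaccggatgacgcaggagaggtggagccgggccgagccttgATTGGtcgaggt
Elovl6: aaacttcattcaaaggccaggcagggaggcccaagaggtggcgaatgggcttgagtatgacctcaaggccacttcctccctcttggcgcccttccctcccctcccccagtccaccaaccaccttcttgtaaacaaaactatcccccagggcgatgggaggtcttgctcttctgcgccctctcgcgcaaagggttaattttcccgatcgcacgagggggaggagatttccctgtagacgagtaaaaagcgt
Ebp: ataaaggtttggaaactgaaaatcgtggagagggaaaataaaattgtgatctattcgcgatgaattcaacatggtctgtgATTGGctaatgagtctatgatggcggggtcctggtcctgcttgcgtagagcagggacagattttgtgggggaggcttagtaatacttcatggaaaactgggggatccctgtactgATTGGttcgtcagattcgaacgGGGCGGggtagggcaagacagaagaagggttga

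The window of Hmgcs1 held the full element, as TCACCCCAC from position -137, and Srebf2 held the looser TCACCCCA from position -162, each near CCAAT boxes read as ATTGG on this strand. Hsd17b7 held an E-box at -143 between CCAAT and GC boxes. Elovl6 held no match, and Ebp held 2 CCAAT boxes and 1 GC box. Over all 25 windows of 300 bases, CCAAT occurred in 20 members (80%), against 43.0% of the 9843 genes at 1 FPKM or more that had a window and 37.4% of the 32851 windows in the table. GGGCGG occurred in 21 members (84%), against 68.6% of those genes and 35.7% of all windows, and 18 members (72%) held both boxes, against 29.7% of those genes. CACGTG stood in Hsd17b7, Sc5d, Dhcr7, Scap and Insig1 (20%, against 11.7% of those genes and 7.15% of all windows). TCACNCCAC was found in Hmgcs1 alone (4%, against 1.44% and 1.24%) and TCACNCNAC in Hmgcs1 and Nsdhl (8%, against 3.39% and 2.70%). TCACNCCA, a form added after the windows had been seen, was found in Hmgcs1, Msmo1 and Srebf2 (12%, against 4.63% and 4.36%); every TCACNCCAC match is also a match of both looser forms. These matches describe letters in the window and do not show binding. Their relation to the differences between groups was not tested.

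**Figure D1:**
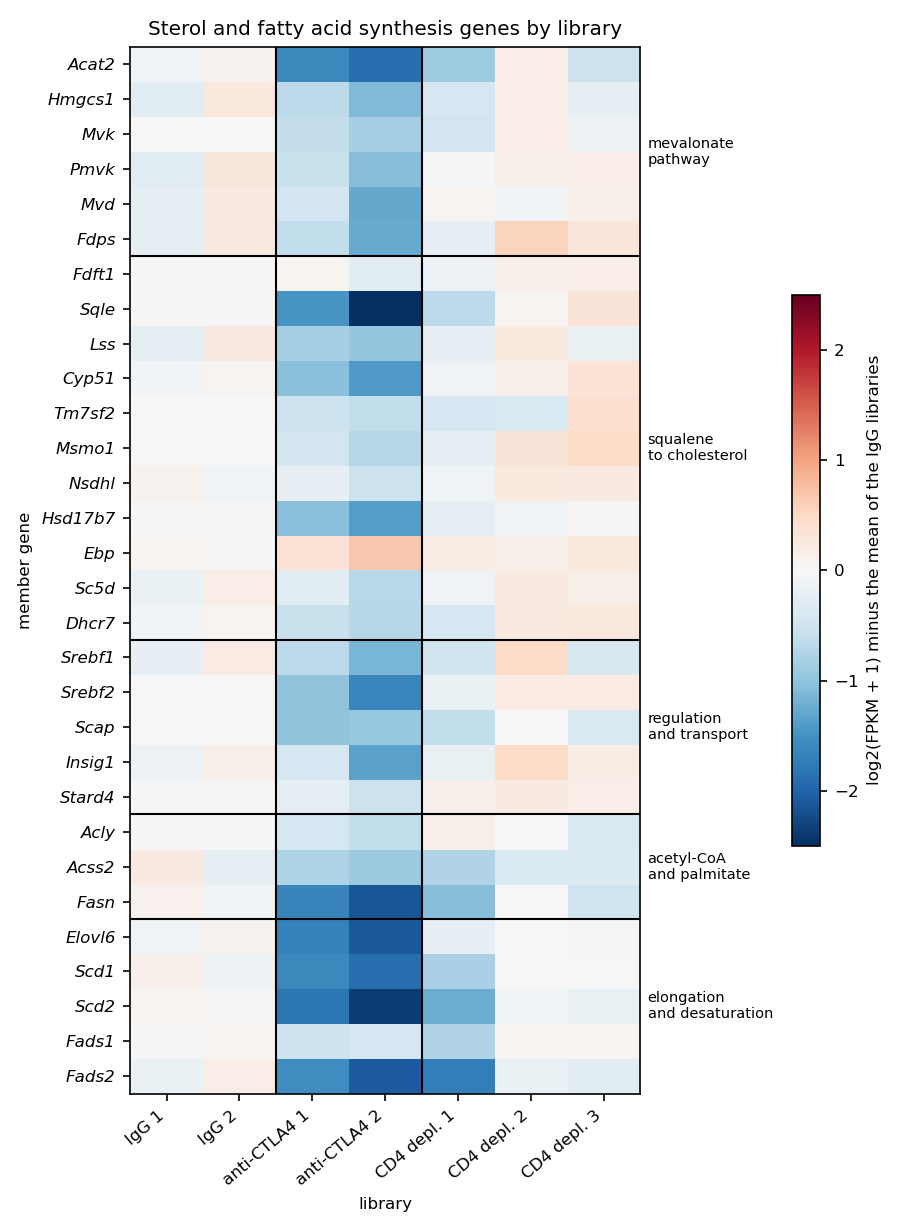
Colour gives log2(FPKM + 1) of each of the 30 members (rows, by role) in each of the 7 libraries (columns), minus the mean of the IgG libraries. Blue fills both columns of the libraries labelled anti-CTLA4 except at Ebp and Fdft1, and CD4 depletion library 1 is bluer than libraries 2 and 3 of its group in most rows.

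The first comparison asks how the sorted cells differ after the CTLA4 antibody. In the libraries labelled anti-CTLA4, 17 of the 30 members fell against IgG, Ebp alone rose and 12 did not pass (limma on log2(FPKM + 1), adjusted p under 0.05). Over all 13028 genes, 28.8% were called lower and 9.29% higher, so the share of members that fell was higher than that of all genes, and the members were not tested as a set. The median log2 change of the members was -0.88, against -0.31 over all genes, and 28 of the 30 lay below that median. By library, both libraries labelled anti-CTLA4 lay below both IgG libraries for 28 members (93.3%), against 54.1% of all genes; Fdft1 and Ebp were the exceptions. Each call rests on few libraries. Without IgG replicate 1, or without anti-CTLA4 replicate 2, limma called no member and no gene of the table (4808 and 4493 genes had an unadjusted p under 0.05). Without IgG replicate 2 Elovl6 was the only member that fell, beside 440 genes of the table, and without CD4 depletion replicate 1 the count of members was 22, beside 4425 genes lower. Scaling each library by the median of gene ratios moved the median of all genes to -0.01 and that of the members to -0.55. It left 11 members lower, all among the 17, beside 2147 genes higher and 2045 lower in place of 1210 and 3747.

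The second comparison asks what CD4 depletion changed under the same antibody, and it shares the libraries labelled anti-CTLA4 with the first, so its direction is not independent of it. In the CD4 depletion libraries 16 of the 30 members were called higher than in those labelled anti-CTLA4 and none lower, against 22.8% and 6.59% of all genes; at an unadjusted p under 0.05 there were 25 members, all higher, beside 5896 of the 13028 genes in either direction. The median log2 change of the members was 0.80, against 0.27 over all genes. All 3 CD4 depletion libraries lay above both libraries labelled anti-CTLA4 for 26 members (86.7%), against 44.7% of all genes. The exceptions were Fdft1, Ebp, Fads1 and Fads2. The same 26 were also lowest in both libraries labelled anti-CTLA4 when set against the other 5 libraries together, against 41.3% of all genes. Without anti-CTLA4 replicate 2 limma called no member and no gene (3280 genes had an unadjusted p under 0.05), without CD4 depletion replicate 2 or 3 there were 6 and 4 members higher, beside 979 and 668 genes, and without replicate 1 there were 23, beside 4133 genes. Scaling by the median of gene ratios left 10 members higher and made Ebp the 1 member called lower, beside 1463 genes higher and 1650 lower in place of 2969 and 858.

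Between the CD4 depletion and IgG libraries limma called 0 of the 30 members and 0 of the 13028 genes (0% higher and 0% lower). No member had an unadjusted p under 0.05, whereas 851 of all genes did. The smallest p among members was 0.058, for Acss2, and the largest log2 change was -0.72, for Fads2. The median of the members was -0.06, against -0.04 over all genes. The intervals stay wide with 2 and 3 libraries: the 95% interval of the log2 change ran from -0.50 to 0.40 for Elovl6, from -1.01 to 0.83 for Sqle and from -1.77 to 0.33 for Fads2.

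**Figure D2:**
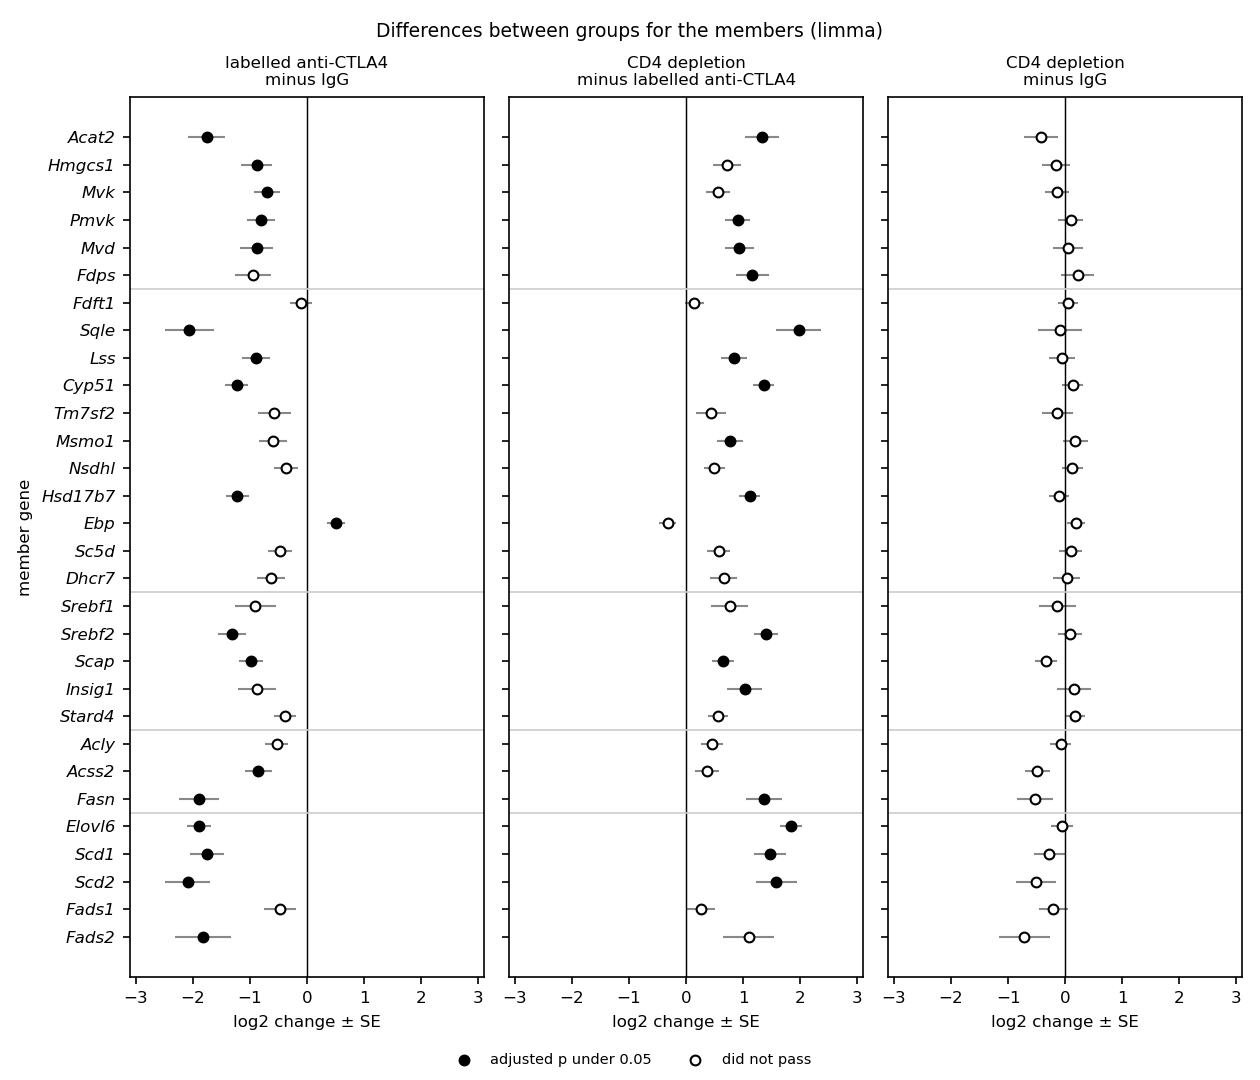
Points give the limma log2 change of each member (rows) with its standard error (bars) for the 3 comparisons (panels), filled where the adjusted p was under 0.05. The first panel holds 17 filled points left of 0 and 1 right of it (Ebp), the second 16 right of 0, and the third none.

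The mevalonate branch builds the isoprene units of sterols, and 5 of its 6 described members fell in the libraries labelled anti-CTLA4, with a median log2 change of -0.88. Over all genes, 28.8% were called lower and the median was -0.31. Acat2 (chr17:12943042-12960725), the cytosolic thiolase that joins acetyl-CoA units, stood at 22.7 and 25.4 FPKM in the IgG libraries, 7.18 and 5.74 in those labelled anti-CTLA4, and 12.5, 27.1 and 16.1 in the CD4 depletion libraries. Its groups labelled anti-CTLA4 and IgG lay far apart, while the CD4 depletion libraries spread across the IgG values. The log2 change of Acat2 was -1.75 ± 0.32 (SE; limma adjusted p = 0.0111) against IgG, and 1.33 ± 0.30 (adjusted p = 0.0203) for CD4 depletion against labelled anti-CTLA4. Of the 50-base words in its transcripts, 39.1% also occur in Acat3, so reads can be split between these genes.

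Hmgcs1, the synthase of HMG-CoA, had 20.6 and 30.2 FPKM with IgG, 15.5 and 11.02 labelled anti-CTLA4, and 18.4, 28.2 and 21.0 with CD4 depletion. The libraries labelled anti-CTLA4 were the lowest, and the other groups overlapped. It changed by -0.88 ± 0.27 on the log2 scale against IgG (limma adjusted p = 0.0406), while the 0.72 ± 0.25 of the CD4 depletion comparison did not pass (adjusted p = 0.0658). Mevalonate kinase, Mvk, had 6.996 and 7.13 FPKM with IgG, 4.37 and 3.56 labelled anti-CTLA4, and 4.88, 7.998 and 6.39 with CD4 depletion. Library 1 of the CD4 depletion group sat just above the libraries labelled anti-CTLA4 and apart from the other 2. The log2 changes of Mvk were -0.71 ± 0.23 (limma adjusted p = 0.0466) and 0.56 ± 0.21 (adjusted p = 0.0784).

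Pmvk, the kinase of the next step, had 14.9 and 22.2 FPKM with IgG, 12.1 and 8.18 labelled anti-CTLA4, and 17.8, 20.2 and 20.6 with CD4 depletion. Mvd, the decarboxylase that follows it, had 8.37 and 11.7, 6.82 and 3.47, and 10.4, 9.42 and 11.1 FPKM in the same order. For both genes the CD4 depletion values lay inside the range of the IgG values, and the libraries labelled anti-CTLA4 lay below it. Pmvk changed by -0.81 ± 0.24 (limma adjusted p = 0.0374) and 0.90 ± 0.22 (adjusted p = 0.0266) in the first and second comparison. Mvd changed by -0.88 ± 0.29 (limma adjusted p = 0.0452) and 0.94 ± 0.26 (adjusted p = 0.0357). Fdps, which makes farnesyl diphosphate, had 17.4 and 24.01 FPKM with IgG, 13.0 and 7.95 labelled anti-CTLA4, and 17.7, 30.5 and 25.4 with CD4 depletion. No library labelled anti-CTLA4 reached the lowest value of the other groups. Its log2 change of -0.94 ± 0.32 against IgG did not pass (limma adjusted p = 0.0502), and the change of 1.16 ± 0.29 with CD4 depletion did (adjusted p = 0.0267). A same-strand annotation, Gm43738, covers 77.4% of the exon bases of Fdps. Idi1, the isomerase between Mvd and Fdps, ranged from 0.182 to 0.865 FPKM and was not tested.

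From squalene to cholesterol, 4 of the 11 members fell in the libraries labelled anti-CTLA4 (Sqle, Lss, Cyp51 and Hsd17b7), Ebp rose, and 6 did not pass. These shares are close to the 28.8% and 9.29% of all genes called lower and higher. Sqle (chr15:59315092-59331193), the squalene epoxidase and a rate-limiting step of this branch, stood at 47.0 and 45.7 FPKM in the IgG libraries, 16.1 and 6.53 in those labelled anti-CTLA4, and 28.9, 48.5 and 58.5 with CD4 depletion. The IgG values nearly coincided, the libraries labelled anti-CTLA4 were lowest, and CD4 depletion library 1 lay between the groups. The log2 changes of Sqle were -2.06 ± 0.43 (limma adjusted p = 0.0133) against IgG and 1.97 ± 0.39 (adjusted p = 0.0164) with CD4 depletion. Those are the largest changes of the branch in both comparisons.

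Cyp51, the lanosterol demethylase, had 18.99 and 21.02 FPKM with IgG, 9.21 and 6.83 labelled anti-CTLA4, and 18.9, 22.04 and 25.5 with CD4 depletion. Hsd17b7, a sterol ketoreductase, had 5.22 and 4.96, 1.93 and 1.33, and 4.11, 4.66 and 5.25 FPKM. In both genes the IgG and CD4 depletion libraries overlapped and the libraries labelled anti-CTLA4 lay clear of them. Cyp51 changed by -1.23 ± 0.20 (limma adjusted p = 0.00995) and 1.36 ± 0.19 (adjusted p = 0.0118). Hsd17b7 changed by -1.22 ± 0.20 (limma adjusted p = 0.00995) and 1.11 ± 0.18 (adjusted p = 0.013). Lss, the cyclase that forms lanosterol, had 3.35 and 4.96 FPKM with IgG, 1.88 and 1.62 labelled anti-CTLA4, and 3.39, 4.995 and 3.48 with CD4 depletion. Its IgG and CD4 depletion values spanned nearly the same range. The log2 changes of Lss were -0.89 ± 0.25 (limma adjusted p = 0.028) and 0.84 ± 0.22 (adjusted p = 0.0319).

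Msmo1, the monooxygenase that removes methyl groups from the sterol ring, had 30.6 and 31.4 FPKM with IgG, 22.2 and 18.5 labelled anti-CTLA4, and 26.0, 39.2 and 42.7 with CD4 depletion. CD4 depletion library 1 lay below the IgG libraries and libraries 2 and 3 above them. The change of -0.59 ± 0.24 against IgG did not pass (limma adjusted p = 0.0904), and the change of 0.77 ± 0.22 with CD4 depletion did (adjusted p = 0.0394). Ebp, the sterol isomerase, had the opposite order of groups. It stood at 15.3 and 14.1 FPKM with IgG, 19.03 and 23.9 labelled anti-CTLA4, and 16.8, 16.0 and 17.9 with CD4 depletion, and no groups overlapped. Its log2 change was 0.51 ± 0.16 against IgG (limma adjusted p = 0.0451) and -0.32 ± 0.15 with CD4 depletion (adjusted p = 0.14). When libraries were scaled to the mean log2(FPKM + 1) of the microglia markers instead, the change of Ebp against IgG became -0.39 (limma adjusted p = 0.448). The Ebp to Cyp51 ratio within a library was 0.806 and 0.67 with IgG, 2.07 and 3.5 labelled anti-CTLA4, and 0.891, 0.727 and 0.703 with CD4 depletion. No scaling of a whole library alters this ratio. Cyp51 itself fell against IgG, so the higher ratio does not by itself show that Ebp rose.

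The other 5 members of the branch did not pass in any comparison. Fdft1, which makes squalene, ranged from 8.61 to 11.9 FPKM over all libraries, with overlapping groups and a log2 change against IgG of -0.10 (95% interval -0.55 to 0.35). Of its exon bases, 20.9% lie opposite exons of Ctsb, a lysosomal protease gene at 296.9 to 1313 FPKM that was higher in the libraries labelled anti-CTLA4 (1313 and 725 FPKM) than with IgG (297 and 356). Reads of both strands were counted, and the part of Ctsb in the Fdft1 values was not tested. Tm7sf2, a sterol reductase, ranged from 2.25 to 5.53 FPKM, and its log2 changes were -0.58 against IgG and 0.44 with CD4 depletion. Nsdhl, a dehydrogenase of sterol demethylation, ranged from 5.58 to 10.3 FPKM (-0.37 and 0.49). Sc5d, a sterol desaturase, ranged from 7.28 to 14.7 FPKM (-0.47 and 0.57), and Dhcr7, the reductase that completes cholesterol, from 9.95 to 20.6 FPKM (-0.63 and 0.66). In these last 4 genes both libraries labelled anti-CTLA4 were again below the other 5.

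Among the 5 members of regulation and transport, Srebf2 and Scap fell in the libraries labelled anti-CTLA4, and Srebf2, Scap and Insig1 were higher with CD4 depletion. Over all genes, 28.8% were called lower in the first comparison and 22.8% higher in the second. Srebf2 (chr15:82147269-82204960) stood at 24.6 and 24.2 FPKM with IgG, 11.7 and 7.21 labelled anti-CTLA4, and 21.8, 28.2 and 28.4 with CD4 depletion. The IgG values lay within the range of the CD4 depletion libraries. The log2 changes of Srebf2 were -1.31 ± 0.24 (limma adjusted p = 0.0109) and 1.40 ± 0.22 (adjusted p = 0.0123). Scap had 27.9 and 28.2 FPKM with IgG, 13.5 and 14.0 labelled anti-CTLA4, and 17.9, 28.1 and 21.4 with CD4 depletion. Its replicates lay close together in these first 2 groups, and CD4 depletion libraries 1 and 3 lay between those groups. Scap changed by -0.98 ± 0.21 (limma adjusted p = 0.0146) and 0.65 ± 0.19 (adjusted p = 0.043).

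Insig1 had 10.7 and 13.5 FPKM with IgG, 8.79 and 4.16 labelled anti-CTLA4, and 10.5, 16.9 and 13.7 with CD4 depletion. The replicates of both IgG and labelled anti-CTLA4 spread more than for Scap, and the change of -0.87 ± 0.33 against IgG did not pass (limma adjusted p = 0.0741), whereas that of 1.03 ± 0.31 with CD4 depletion did (adjusted p = 0.0424). Srebf1 ranged from 10.8 to 35.6 FPKM. Its log2 changes of -0.90 (limma adjusted p = 0.0788) and 0.77 (adjusted p = 0.107) did not pass, and CD4 depletion library 2, at 35.6 FPKM, stood apart from libraries 1 and 3 at 17.5 and 18.8. The Srebf2 to Srebf1 ratio was 1.13 and 0.832 with IgG, 0.753 and 0.668 labelled anti-CTLA4, and 1.24, 0.793 and 1.52 with CD4 depletion. Stard4, a cytosolic carrier of sterol, was the lowest described member, at 0.585 to 1.68 FPKM; it was below 1 FPKM in both libraries labelled anti-CTLA4 and passed the filter through the other groups. Its log2 changes were -0.39 and 0.56.

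Acetyl-CoA for both branches comes from Acly, which splits citrate, and Acss2, which uses acetate. Acly was the second most abundant member per length, at 45.2 to 78.1 FPKM, and its log2 changes of -0.53 (limma adjusted p = 0.0735) and 0.45 (adjusted p = 0.0975) did not pass. Acss2 had 6.66 and 4.56 FPKM with IgG, 2.80 and 2.41 labelled anti-CTLA4, and 2.86, 4.03 and 4.16 with CD4 depletion. Its 3 groups did not overlap, with the CD4 depletion libraries in between. Acss2 changed by -0.86 ± 0.24 against IgG (limma adjusted p = 0.0292) and by 0.37 ± 0.22 with CD4 depletion (adjusted p = 0.227). Acaca, the acetyl-CoA carboxylase, ranged from 0.169 to 0.992 FPKM and was not tested.

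Fasn (chr11:120805958-120824547), the synthase of palmitate, stood at 18.8 and 16.2 FPKM with IgG, 4.93 and 3.18 labelled anti-CTLA4, and 7.81, 17.5 and 12.1 with CD4 depletion. CD4 depletion library 1 was nearer the libraries labelled anti-CTLA4 than IgG, and library 2 was within the IgG range. Its log2 changes were -1.89 ± 0.34 (limma adjusted p = 0.0109) and 1.37 ± 0.31 (adjusted p = 0.0216).

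Elongation and desaturation held the largest median change of the 5 roles, with a median log2 change of -1.82 in the first comparison and 1.47 in the second. Elovl6 (chr3:129532386-129638493), which lengthens palmitate to stearate, had 5.43 and 6.36 FPKM with IgG, 1.14 and 0.614 labelled anti-CTLA4, and 4.996, 5.93 and 6.05 with CD4 depletion. The IgG mean was 6.74 times the mean of the libraries labelled anti-CTLA4, and IgG and CD4 depletion libraries overlapped. Elovl6 changed by -1.89 ± 0.21 (limma adjusted p = 0.00936) and 1.84 ± 0.19 (adjusted p = 0.0109), the smallest adjusted p of any member in each comparison.

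Scd1 and Scd2 are stearoyl-CoA desaturases that make monounsaturated fatty acids, and Scd2 was the most abundant member. In mm10 they both lie on chromosome 19, Scd2 at chr19:44293676-44306862 and Scd1 at chr19:44394450-44407709. Scd2 stood at 151 and 139.8 FPKM with IgG, 40.2 and 27.4 labelled anti-CTLA4, and 60.7, 136 and 127 with CD4 depletion. Scd1 stood at 10.4 and 8.69, 2.44 and 1.85, and 4.99, 9.44 and 9.48 FPKM. In both genes CD4 depletion library 1 lay between the groups and libraries 2 and 3 lay close to IgG. Scd2 changed by -2.09 ± 0.39 (limma adjusted p = 0.0111) and 1.58 ± 0.35 (adjusted p = 0.0206). Scd1 changed by -1.75 ± 0.30 (limma adjusted p = 0.0105) and 1.47 ± 0.28 (adjusted p = 0.0149). The Scd2 to Scd1 ratio was 14.5 and 16.1 with IgG, 16.5 and 14.8 labelled anti-CTLA4, and 12.2, 14.4 and 13.4 with CD4 depletion, so the first 2 groups overlapped and the third lay just below them. Their transcripts share 145 of the 50-base words, or 2.97% of those of Scd1.

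Fads2 (chr19:10064164-10101503) and Fads1 (chr19:10182888-10196872) are the desaturases of polyunsaturated fatty acids. Fads2 had 43.5 and 54.3 FPKM with IgG, 15.9 and 10.8 labelled anti-CTLA4, and 14.2, 42.5 and 40.5 with CD4 depletion. CD4 depletion library 1 fell between the libraries labelled anti-CTLA4, so these groups overlapped. Fads2 changed by -1.82 ± 0.49 (limma adjusted p = 0.0266) against IgG, and the 1.10 ± 0.45 of the CD4 depletion comparison did not pass (adjusted p = 0.0984). Without CD4 depletion replicate 1, which for Fads2 stood far from the other 2, that second change was 1.59 (adjusted p = 0.00428). Fads1 ranged from 27.2 to 48.7 FPKM, lowest in CD4 depletion library 1, with log2 changes of -0.47 (limma adjusted p = 0.21) and 0.26 (adjusted p = 0.453). The Fads1 to Fads2 ratio was 1.03 and 0.879 with IgG, 2.03 and 3.18 labelled anti-CTLA4, and 1.91, 1.13 and 1.2 with CD4 depletion. The difference between these genes was not tested.

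**Figure D3:**
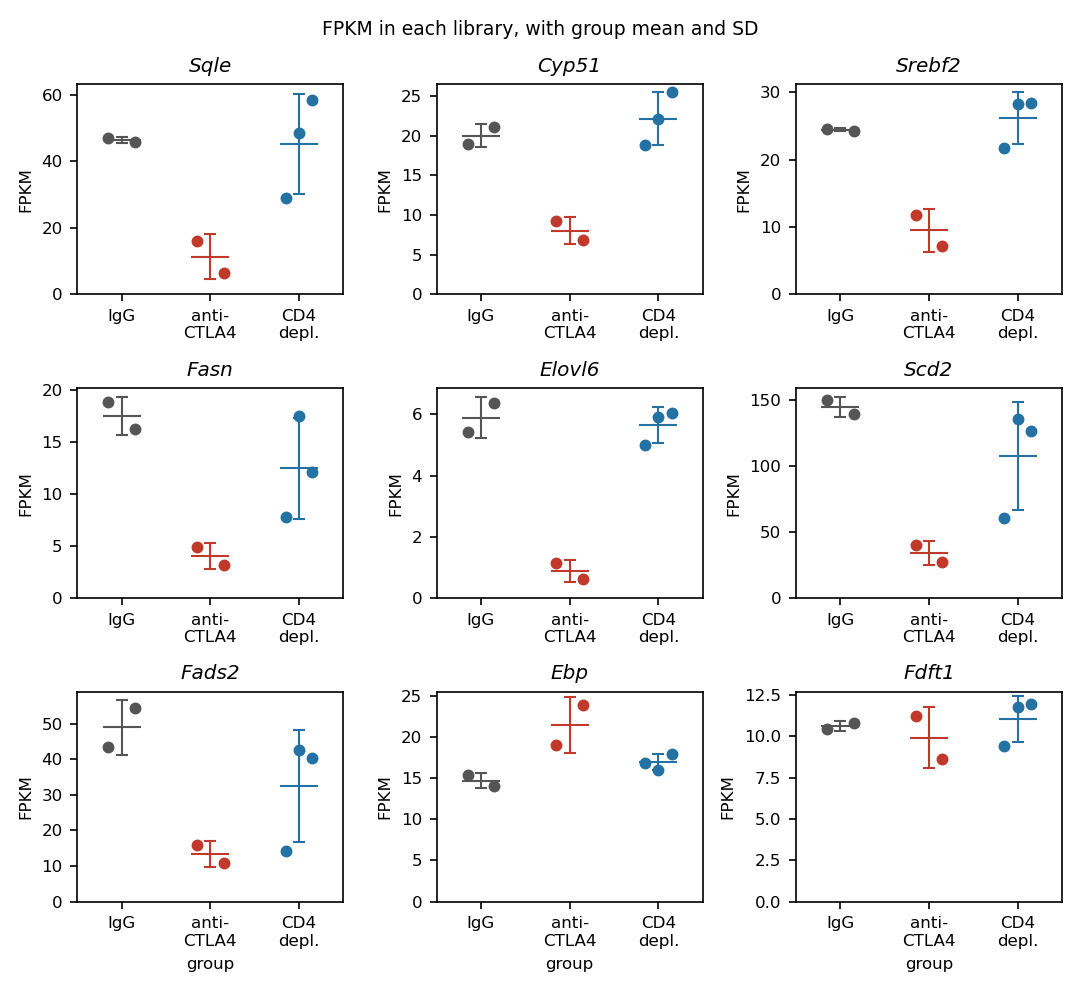
Points give FPKM of 9 members in each library by group (2, 2 and 3 libraries), with the group mean (horizontal line) and SD (bar), on axes that start at 0. Sqle, Cyp51, Srebf2, Fasn, Elovl6 and Scd2 are lowest in both libraries labelled anti-CTLA4, Fads2 overlaps there with CD4 depletion library 1, Ebp is highest there, and Fdft1 overlaps in all groups.

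Within the 2 treated groups, too, most members ordered the libraries alike. In the IgG group, library 1 was below library 2 for 20 of 30 members, against 52.9% of all genes. The second library labelled anti-CTLA4 was below the first for 27 of 30 members, against 55.9% of all genes. CD4 depletion library 1 was below libraries 2 and 3 of its group for 27 of 30 members, against 56.5% of all genes; Mvd, Ebp and Acly were the exceptions. The summed level of the 30 members was 699.6 and 740.2 FPKM with IgG, 373 and 295 labelled anti-CTLA4, and 494, 762 and 701 with CD4 depletion. Counts of members are therefore not counts of independent changes.

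Markers of other cells differed between the same libraries. In the first comparison 9 of the 10 oligodendrocyte precursor and tumour markers fell, with a median log2 change of -2.88, as did 4 of 9 astrocyte markers (median -1.16) and 7 of 12 cell cycle genes (median -1.06), where 28.8% of all genes fell with a median of -0.31. The cell cycle genes summed to 300.3 and 289.5 FPKM with IgG, 176 and 86.0 labelled anti-CTLA4, and 262, 327 and 321 with CD4 depletion. Of the 10 microglia markers, 3 rose and 0 fell, and their sum was 4728 and 3816 FPKM with IgG, 7218 and 10645 labelled anti-CTLA4, and 3317, 5250 and 5005 with CD4 depletion. In the second comparison 7 of the 10 precursor and tumour markers and 9 of the 12 cell cycle genes were higher, against 22.8% of all genes. The 10 endothelial and mural markers, of which 9 passed the filter, summed to 23.5 and 29.1 FPKM with IgG, 306 and 166 labelled anti-CTLA4, and 53.0 to 95.8 with CD4 depletion. Those of myelinating oligodendrocytes summed to 80.2 to 172 with overlapping groups. CD4 depletion library 1, which was low in 27 members, held the high monocyte sum and the lowest microglia sum. The part of these cells and of cell division in the member changes was not tested. With libraries scaled to the mean log2(FPKM + 1) of the microglia markers, 27 members were lower in the first comparison, beside 6874 of the 13028 genes.

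**Figure D4:**
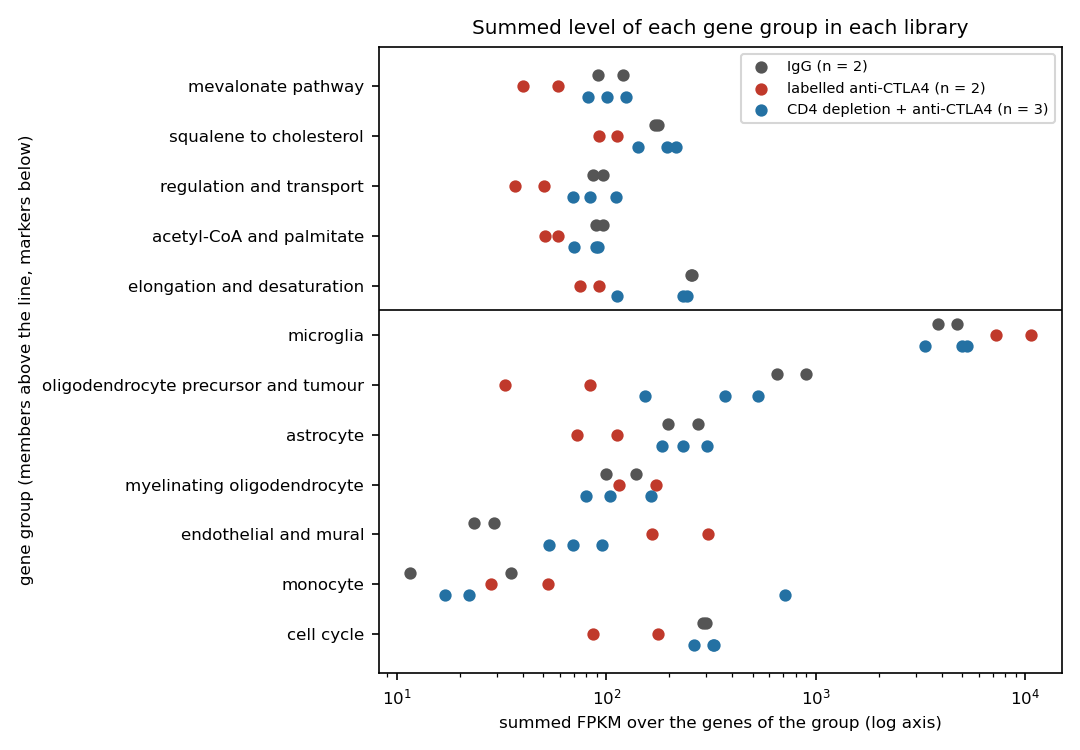
Each point is the summed FPKM of a gene group in 1 library, on a log axis, with member roles above the line and marker lists below it. The libraries labelled anti-CTLA4 are lowest in all 5 member roles, as in the oligodendrocyte precursor and tumour, astrocyte and cell cycle lists, and highest in the microglia and the endothelial and mural lists.

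Other genes of the pathway were taken from 3 further lists. Among sterol genes outside the module, Mbtps1 and Aacs fell in the libraries labelled anti-CTLA4 and were higher with CD4 depletion. Mbtps1, the protease that first cuts SREBPs in the Golgi, changed by -0.82 ± 0.18 (limma adjusted p = 0.0147) against IgG and by 0.68 ± 0.16 (adjusted p = 0.0238) with CD4 depletion. Aacs, which activates acetoacetate, changed by -0.79 ± 0.19 (limma adjusted p = 0.0179) and 0.62 ± 0.17 (adjusted p = 0.0341).

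Of 21 tested fatty acid genes outside the module, 10 fell and 2 rose in the libraries labelled anti-CTLA4, and 5 were higher and 2 lower with CD4 depletion. Beside the 28.8% of all genes called lower and 9.29% higher in the first comparison, and 22.8% higher and 6.59% lower in the second, the share that fell lay above that of all genes and the other 3 shares lay near it, and the list was not tested as a set. Me1, the malic enzyme that supplies NADPH, had 16.7 and 16.5 FPKM with IgG, 2.80 and 2.31 labelled anti-CTLA4, and 9.15, 15.2 and 18.6 with CD4 depletion. It changed by -2.31 ± 0.30 (limma adjusted p = 0.00936) and 2.06 ± 0.27 (adjusted p = 0.0114). The elongase Elovl4 changed by -2.07 and 1.57, the acyl-CoA synthetase Acsl3 by -2.11 and 1.98, the dehydratase Hacd1 by -1.94 and 1.59, and the elongase Elovl5 by -1.62 and 1.37 on the log2 scale, and each passed in both comparisons. Elovl1, another elongase, went the other way, by 0.90 (limma adjusted p = 0.0122) and -0.605 (adjusted p = 0.0322). Fads3 also rose against IgG, and Acsl5 was also lower with CD4 depletion. The median over the 21 genes was -0.56 and 0.32. Of 6 genes of the LXR receptors and sterol efflux, which answer to sterol excess, Abcg1 and Mylip rose in the libraries labelled anti-CTLA4, by 0.90 ± 0.19 (limma adjusted p = 0.0146) and 0.92 ± 0.22 (adjusted p = 0.0196). Both were lower with CD4 depletion, by -0.76 (adjusted p = 0.0226) and -0.88 (adjusted p = 0.0219). No gene of these 3 lists passed between CD4 depletion and IgG.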

How the data were processed

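Total RNA of the sorted microglia was sequenced in 7 libraries, from ultra-low-input cDNA libraries on a HiSeq2500 per the labels' protocols. Per the submitters' processing notes, the authors used STAR, HOMER and DESeq2 with the build mm10; versions are not given in the sources used here. The authors' deposited FPKM values are scaled to exon length and library size and, per the file headers, count both strands, so overlapping and antisense genes cannot be told apart. Another deposited column holds transcript length. There were 0 columns of values without a sample.

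The members and gene lists were chosen with earlier results of these data known. The test was limma (version 3.58.1, under R 4.3.3) on log2(FPKM + 1), a scale that understates changes of low genes. A single model over the 3 groups took the 13028 genes that reached 1 FPKM in 2 or more libraries, with a mean-variance trend, and two-sided p-values were adjusted over all of them by Benjamini-Hochberg with a threshold of 0.05. The fit was checked on simulated data. Intervals are limma's, at 95%. An exact permutation test cannot go below p = 0.333 for 2 libraries against 2 or 0.1 for 2 against 3, so limma's values are given alone. Nothing in the labels says that each replicate was its own animal. The p-values therefore reflect the spread between libraries, and that spread may be technical. Totals of reads were inferred from low values of transcripts of 200 to 800 nucleotides, of which 100% lay within 0.1 of a whole read.

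Every member is named, and members past the threshold in any comparison are given in every library. Of the other pathway genes that passed, up to 4 per list and comparison with the smallest p are named. The fatty acid genes that went the other way are named as well. Cell markers are named only as lists or where they are near 0. A result of the further sterol list is not reported here. Alternatives were other pseudocounts, filters and scalings, a fit without the trend, a replicate block, a fit of only the groups compared, and each library left out.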

Additional observations from a re-analysis of the deposited data

How the results depend on the processing

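Against IgG (17 members lower, 1 higher, median -0.88), the count lower was 11 without the filter, 11 with median-of-ratios scaling, 11 with quantile normalization, 27 with scaling to the microglia markers and 10 with the replicate block. Over all genes, 3108 of 19667 were lower without the filter and 2068 of 13028 with the block. Ebp, the 1 member called higher, lost its call (0 higher) without the filter, with the microglia scaling, without the trend, with the block and in the fit of only the groups compared, and changed sign with the microglia scaling (-0.39). The median was -0.60 with a pseudocount of 5, -0.55 with median-of-ratios scaling, -0.58 with quantile normalization and -1.66 with the microglia scaling, where that of all genes was -1.03. Other pathway genes higher (4) numbered 9, 7, 0 and 2 with median-of-ratios, quantile, microglia scaling and the block, and those lower (13) numbered 7 with median-of-ratios scaling. Without the filter both genes below it were tested, and the carboxylase gene was among the 11.

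For CD4 depletion against labelled anti-CTLA4 (16 members higher, 0 lower, median 0.80), the count higher was 10 without the filter, 10 with either median-of-ratios or quantile scaling, which each made 1 lower, 29 with the microglia scaling and 0 with the block. Without the filter, 9 of the 16 kept their call and Idi1 was called higher as well. Over all genes, 1861 of 19667 were higher without the filter, and with the block 0 of 13028 were called in either direction. The median was 0.54, 0.55 and 1.64 with the 3 scalings. Other pathway genes higher (8) numbered 5, 5, 20 and 0 with those scalings and the block, and those lower (4) numbered 0 with the microglia scaling, 0 with the block and 2 in the fit of only the groups compared. The cause of these shifts was not tested. Over all genes, quantile normalization gave 1928 higher and 2081 lower in the first comparison and 1452 and 1460 in the second, and the microglia scaling 69 and 6874, and 7274 and 100.

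With 1 library left out, the lone library of a group was assumed to vary like the others. In the first comparison members lower ranged from 0 to 22, members higher from 0 to 1, the median from -1.09 to -0.64, other pathway genes higher from 0 to 5 and lower from 0 to 13. In the second, members higher ranged from 0 to 23, the median from 0.61 to 0.98, other pathway genes higher from 0 to 12 and lower from 0 to 4. No call was made between CD4 depletion and IgG under any of these alternatives.

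Whether the replicate numbers pair the libraries cannot be told from the values. Deviations of same-numbered libraries correlated at -0.125 between IgG and labelled anti-CTLA4, and at -0.181 and -0.205 between IgG and CD4 depletion. Between the treated groups the values were 0.078 and 0.123. In a group of 2 libraries the deviations mirror each other, so there the other replicate number only reverses the sign. The values with the replicate block (10 members lower, then 0 higher) are given only in this section.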
